A study of Mus musculus with 2 samples.

Results

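The amino acid transporters examined here are the genes of 7 solute carrier families, Slc1a, Slc3a, Slc6a, Slc7a, Slc36a, Slc38a and Slc43a. They were chosen by name alone: a non-control probe belonged if the gene name on the array was one of these prefixes followed by a number. The rule found 60 genes with 110 probes, out of 37305 gene names and 56605 probes on the array. It also takes in relatives that carry creatine, taurine, amine neurotransmitters or nucleobases.

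Amino acids cross membranes on carriers that differ in what they move and in what drives them. Slc1a and Slc38a carriers couple neutral or acidic amino acids to sodium, and Slc6a carriers use sodium and chloride. Most Slc7a proteins are exchangers or cationic amino acid carriers, several of which need a Slc3a glycoprotein partner to reach the plasma membrane. Slc43a carriers pass large neutral amino acids by facilitated diffusion. Some Slc36a carriers use protons, and the family is best known from lysosomes. In skeletal muscle these proteins supply glutamine and leucine for protein turnover and bring in the creatine and taurine that muscle stores.

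Both samples were C2C12 myotubes, made from a mouse myoblast line by culture in horse serum, and all RNA was collected after 24 h with exosomes, the small vesicles that cells release. The KPC-exo culture received 4 µg of vesicles from a pancreatic cancer line, derived from a tumour of mice whose engineered alleles include Trp53 LSL-R172H/+ and Pdx1-Cre. This Cre is driven by a pancreatic promoter. The control culture (MPDC-exo; its array is called the control array below) received vesicles of a mouse pancreatic ductal epithelial line, at a dose not given in the sources used here. No culture without vesicles was among the samples, so each difference lies between these vesicle sources and not against untreated myotubes.

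Each group had 1 Cy3-labelled array, both on the same slide and read in the same scan. There was no replicate culture, so no test was run, and each difference compares 2 arrays and not the conditions. All 16 myotube markers were well above background, with a median log2 difference (KPC-exo minus MPDC-exo) of 0.00. At their brightest probes they ranged from -0.43 for Ckm to 0.60 for Mb, which alone passed 1.5-fold. A dimmer Myh4 probe had -1.19. The summed linear signal of the markers, relative to each array's 75th percentile, was 772 on the control array and 789 on the KPC-exo array. Of 8 neuronal markers 4 were measured, Snap25, Tubb3, Gad1 and Nefl. Rbfox3 was well above background on the control array only, and Syt1, Slc17a7 and Gad2 on neither array. Of 7 kidney or gut epithelial markers 1 was measured, Krt19, and of 6 pancreatic ductal markers 2 were. The astrocyte and adipocyte lists had 2 of 4 measured each. Of the 4 macrophage markers 3 were measured, with log2 differences of 0.29 for Ptprc, 0.63 for Cd68 and -0.88 for Csf1r. The 75th percentile of the processed signal, to which every level below is scaled, was 380.4 units on the control array and 638.6 on the KPC-exo array. A processed signal can therefore be larger on the KPC-exo array while its scaled level is equal or lower.

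Of the 60 transporter genes, 30 were measured, meaning that the brightest probe of the gene stood well above background on both. Over all genes the share was 45.5%. A further 5 (8.33%) were detected, in this sense, with KPC-exo only and 2 (3.33%) with MPDC-exo only, beside 3.42% and 1.65% of all genes. The other 23, or 38.3%, stayed below that level on each array, beside 49.3% of all genes. Families differed in how much of them was measured. All 3 Slc43a genes, 7 of 11 Slc38a genes and 4 of 7 Slc1a genes were measured, against 6 of 15 Slc7a and 7 of 18 Slc6a genes. In Slc3a it was 1 of 2 and in Slc36a 2 of 4.

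**Figure D1:**
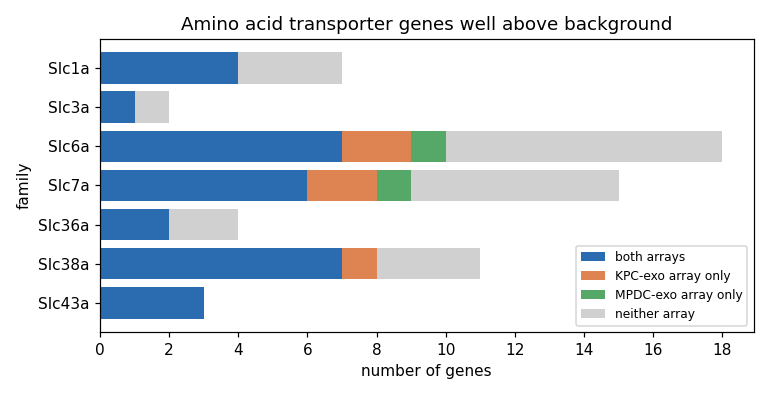
Number of genes in each family (horizontal axis) whose probes were well above background on both arrays, on 1 array or on neither, with 1 array per group. The Slc6a and Slc7a families hold the most genes, and 8 and 6 of them were on neither array, while all 3 Slc43a genes were on both.

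The transporters that were not well above background include many known from brain, kidney and gut. Among them are the neuronal and glial glutamate carriers Slc1a1, Slc1a2 and Slc1a7, and the dopamine, serotonin and glycine carriers Slc6a3, Slc6a4 and Slc6a5. The carriers of GABA or betaine Slc6a11, Slc6a12 and Slc6a13 were also in this class, as were Slc6a14 and Slc6a18. The paired subunits of the cystine and dibasic amino acid carrier of kidney, Slc3a1 and Slc7a9, were both not well above background, and so were Slc7a3, Slc7a8, Slc7a10, Slc7a12, Slc36a2, Slc36a3, Slc38a3, Slc38a4 and Slc38a5. These 23 genes had 34 probes, with processed signals from 6.20 to 30.5 units (median 6.55) on the control array and from 9.41 to 47.4 units (median 9.59) on the KPC-exo array. Of these spots, 27 and 24 held the surrogate that the scanner software puts in for a signal too small to use. Such a probe gives only an upper bound on its transcript. In a culture measured in bulk, fewer cells that express a gene and less of its RNA per cell cannot be told apart.

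Slc7a5, the light chain of the leucine carrier that pairs with Slc3a2, was in the same class. It had 1 probe, at chr8:124430996-124431055 (mm9), with 19.5 units on the control array and 39.7 on the KPC-exo array. This probe is 60% G and C, and no transporter probe had a higher share. Of 864 array probes with at least that share 54.7% were well above background on both arrays. The first 30 of its 60 bases are given because the class of this gene rests on that probe alone.
Slc7a5, only probe: tagtcttcgccacctacttgctcaagccgg

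Among 7 pairs of transporters that lie side by side in the mouse genome (neighbours taken from RefSeq, GRCm38.p6), 3 pairs fell in the same detection class and 4 did not. No share was computed for pairs that are not neighbours, so whether neighbours are more alike was not tested. On chromosome 11 Slc36a1 was measured while its neighbours Slc36a2 and Slc36a3 were not. On chromosome 15 Slc38a1 and Slc38a2 were measured and Slc38a4, next to Slc38a2, was not.

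The 30 measured genes spanned nearly the whole range of signal. On the MPDC-exo array their signals lay between the 3.4 percentile of measured genes, for Slc6a16, and the 91.3 percentile, for Slc38a2. The percentile describes how bright a probe is and gives no order of transcript amounts between genes, since probes differ in sensitivity. The brightest were Slc38a2, a sodium-coupled neutral amino acid carrier, the creatine carrier Slc6a8, the heavy chain Slc3a2 and the taurine carrier Slc6a6, at the 91.3, 90.2, 88.8 and 88.7 percentiles. The place of Slc38a2 rests on a spot whose local background was flagged on both arrays. It was at the 17.3 percentile with such spots left out and at 65.7 with the mean over its probes, which put Slc3a2 at 77.2.

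**Figure D2:**
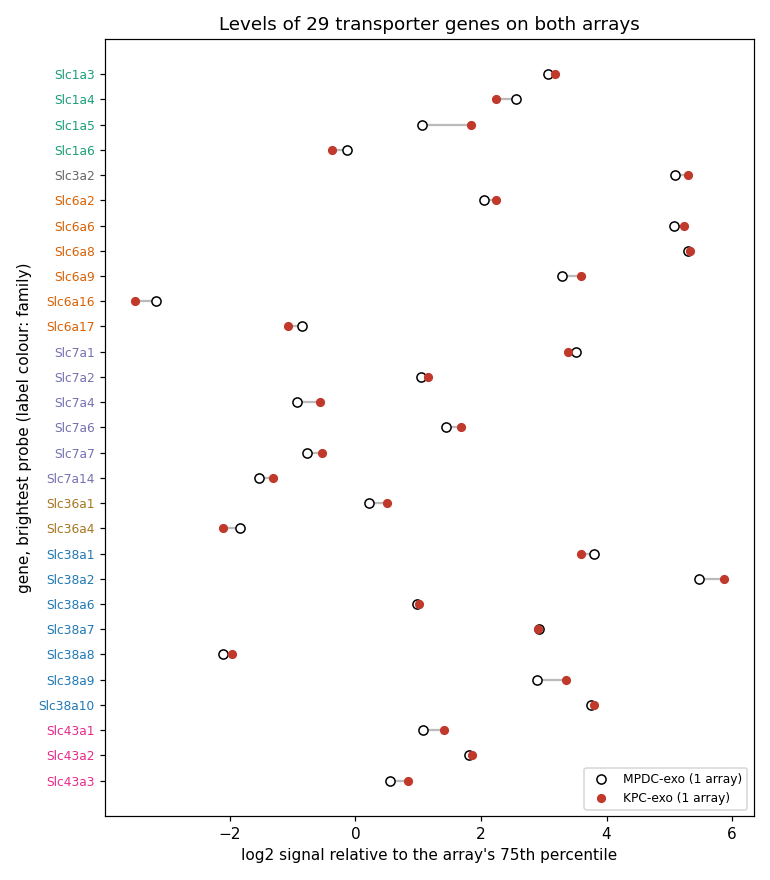
Log2 signal of each measured transporter gene relative to the array's 75th percentile (horizontal axis), at its brightest probe, on the MPDC-exo array (open circles) and the KPC-exo array (filled circles), 1 array each. Of the measured genes 29 are plotted. In most the points nearly coincide, and the widest gap is in Slc1a5.

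Most of the transporters differed little between the arrays. The median log2 difference of the 30 measured genes was 0.13 (interquartile range -0.09 to 0.27), beside 0.06 (-0.12 to 0.23) over all 16989 measured genes. Slc1a5 was the only transporter at least 1.5-fold higher with KPC-exo, where 3.73% of all measured genes were. In the other direction 1 gene was at least 1.5-fold lower, where 3.70% were. With 30 genes these counts are close to the background shares. No transporter reached 2-fold. There were 21 differences above 0 and 9 below, beside 58.9% above 0 over all measured genes.

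The precision of a single difference can be judged from technical values only. Of 292 probes spotted several times and measured, the spots of a probe scattered by 0.03 (median SD, log2) on each array. The 12 of these below the median signal of measured genes scattered by 0.09 on the control array and 0.11 with KPC-exo, and 15 of the 30 transporters lay in the 2 dimmer quartiles of signal. The scanner software's own error estimate, carried to the difference, ran from 0.20 to 0.40 (median 0.20), and 16 of the 30 differences exceeded their estimate, 10 of them upward and 6 downward. Over all measured genes 42.6% did so, 26.8% upward and 15.8% downward. Different probes of the same transporter disagreed more. Over the 13 genes with at least 2 measured probes the pooled SD of the difference was 0.29, beside 0.36 over 5736 genes of the array. In 7 of these 13 genes the probes had differences of opposite sign, and in 3 they lay over 0.5 apart. None of these values covers variation between cultures.

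**Figure D3:**
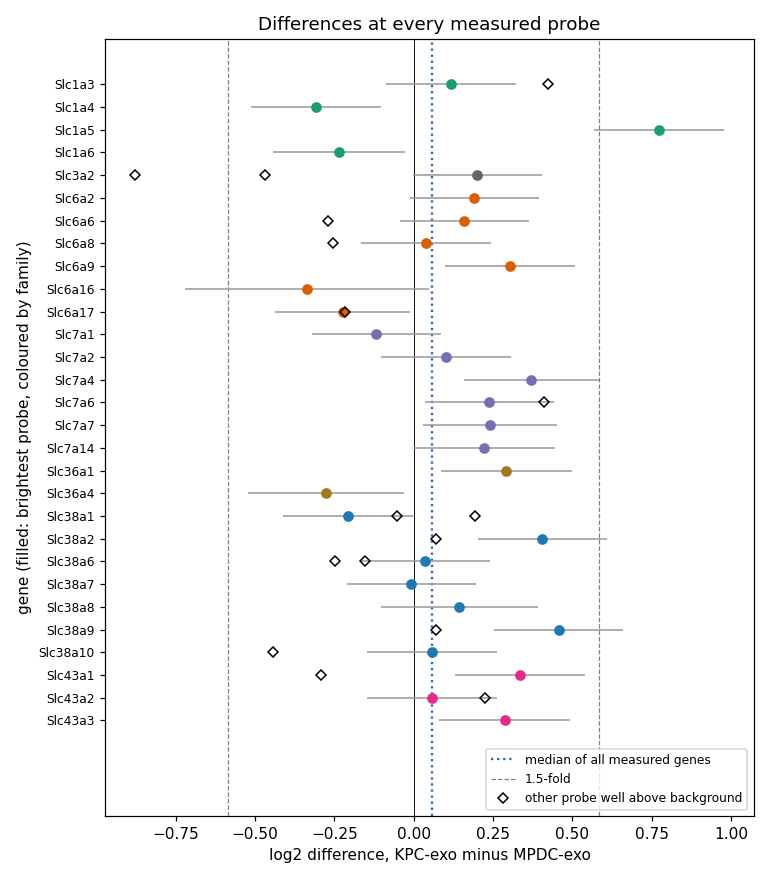
Log2 difference (KPC-exo minus MPDC-exo) of each measured transporter gene at its brightest probe (filled, with the scanner software's error as a bar) and at its other measured probes (open diamonds), with 1 array per group. Of the 29 genes plotted, Slc1a5 lies beyond the 1.5-fold line to the right, and the other probes of Slc3a2 lie at -0.88 and -0.47 while its brightest lies at 0.20.

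The position of a gene on the scale of signal also matters for how wide its difference can be. In the dimmest quartile of measured genes 9.89% stood at least 1.5-fold higher and 7.58% lower, and in the brightest quartile 0.66% and 0.97%. The SD of the differences was 0.49 in the dimmest quartile and 0.25 in the brightest. Set against the central 95% of measured genes in its bin (20 bins of signal), Slc1a5 lay clearly outside, at 0.77 where the band ended at 0.53. Slc38a2, at 0.41 beside 0.39, lay at the edge.

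**Figure D4:**
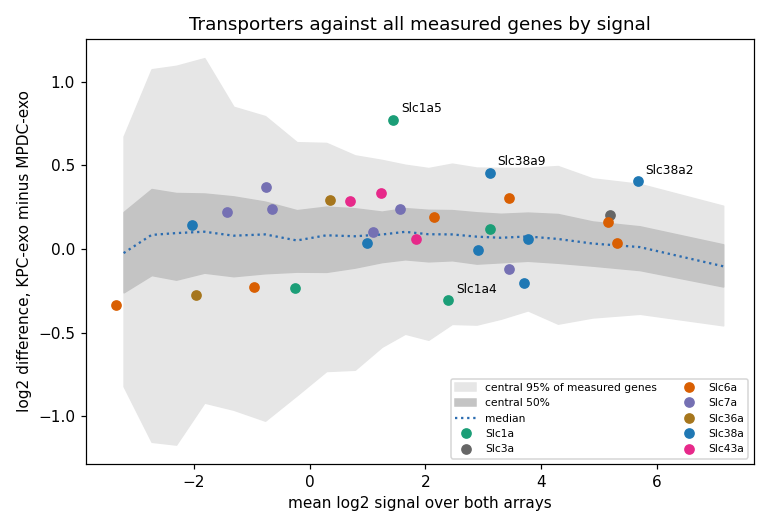
Log2 difference (KPC-exo minus MPDC-exo) against the mean log2 signal of both arrays for 29 measured transporters, coloured by family, over bands that hold the central 95% and the central 50% of all measured genes in 20 bins of signal. Slc1a5 stands above the band at 0.77, and the band narrows from dim to bright genes.

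Among the Slc1a carriers, the glutamine carrier Slc1a5 had a processed signal of 793 units on the control array and 2276 on the KPC-exo array. Scaled to each array, its log2 level went from 1.06 to 1.83, a difference of 0.77 with a scanner error of 0.20, or 1.71-fold higher. Among all measured genes 98.2% had a lower difference. The value rests on 1 probe, at chr7:17383359-17383418 on the + strand (mm9), in the second quartile of signal, where 3.34% of genes were at least 1.5-fold higher. No run of 20 bases of this probe occurred in a probe of another gene, and its start is shown as the sequence behind the highest difference of the set.
Slc1a5, only probe: cctaccctctcaggaaatgggttgtcctgt

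Slc1a4, a carrier of alanine, serine and cysteine related to Slc1a5, lay the other way. Its processed signals were 2231 units on the control array and 3026 on the KPC-exo array, and its scaled level was 1.24-fold lower, a log2 difference of -0.31. Its only probe, at chr11:20202615-20202674 on the - strand (mm9), crosses a stretch of alternating g and t. The bases from position 25 to 54 are given, and capitals mark what is shared, as a run of at least 20 bases, with probes of other genes.
Slc1a4, only probe: tcaaGTGTGTGTGTGTATGTGTGTGctttt
Probes of 6 other gene names held such a run on the same strand. All 6 were well above background, with log2 differences between -0.42 and -0.36, so the value of Slc1a4 is close to that of unrelated probes with the same repeat. How far these letters set the signal of the Slc1a4 probe was not tested. Shared runs were found in 6 of the 110 transporter probes, or 5.45%, the same share as over all 56605 probes. This search was added after the sequences and values had been seen.

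The glial glutamate carrier Slc1a3 had 3189 and 5812 units, a log2 difference of 0.12, and 0.42 at a second, dimmer probe whose local background was flagged on the KPC-exo array. Slc1a6, a glutamate carrier known from cerebellum, was measured with 346 and 493 units and a difference of -0.23. The median of the 4 Slc1a differences was -0.06.

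For Slc3a2, the heavy chain that brings several Slc7a light chains to the plasma membrane, the probes did not give the same answer. The brightest, at chr19:8782189-8782248 (mm9), had 13011 units on the control array and 25107 on the KPC-exo array, a log2 difference of 0.20. The second, at chr19:8781855-8781914, had 4239 and 3872 units, and its level went from 3.48 to 2.60, a difference of -0.88. The other one, assigned through a clone, is listed at chr19:8784238-8787243, a span of 3006 bases for a probe of 60. It had 406 and 493 units and a difference of -0.47. The 3 probes thus ran from 0.20 to -0.88, with the dimmer ones low. They are shown to make their difference visible, with capitals for bases within a run of at least 20 that a probe of another gene also holds.
Slc3a2, brightest probe: gagggcttgctgttacagttcccctttgtg
Slc3a2, second probe: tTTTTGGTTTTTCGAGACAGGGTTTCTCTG
Slc3a2, clone probe: ttctacaaagtgccaagaaaaagagaagct
In the second probe 59 of the 60 bases lay in such runs, shared with probes of 11 other gene names, and the accessions listed for it also include those of Fadd and Slc27a1. The letters are those of a B1 element, a short repeat spread over the mouse genome. The 3 partner probes that hold the run on the same strand had log2 differences from -0.85 to -0.70, and the 8 that hold it on the opposite strand from -0.39 to 0.59. Over the whole array 174 probes shared runs with at least 10 gene names, and the 163 of these that were measured had a median difference of -0.29, beside 0.04 over all measured probes. The brightest probe of Slc3a2 and its clone probe held no shared run.

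Among the Slc7a light chains and cationic carriers, differences were small and 5 of 6 lay above 0, with a median of 0.23. Slc7a6, which exchanges cationic for neutral amino acids as a partner of Slc3a2, had 1036 and 2053 units, and its 2 probes gave log2 differences of 0.24 and 0.41. Slc7a7, a second exchanger of this kind, had 222 and 439 units and a difference of 0.24. Both lay slightly higher on the KPC-exo array, by about as much as the scanner error. The arginine and lysine carrier Slc7a1 had 4335 and 6710 units and a difference of -0.12, and Slc7a2, another cationic carrier, 788 and 1420 units and a difference of 0.10. These lay within the scanner error. Slc7a4, whose transport role is unsettled, had 199 and 432 units and a difference of 0.37. Slc7a14, related to the cationic carriers, had 131 and 257 units and a difference of 0.22, and its other probe held the surrogate on both arrays.

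In 7 transporters the contrast between the arrays was one of detection, which gives a bound and not a value. The bound sets the bright level against the lowest level well above background on the other array, or the probe's own level there if that is higher. It does not include the scanner error. On the control array that lowest level was -3.61, and an undetected probe of Slc38a10 lay at -3.55, so the bound is not a firm minimum. Slc7a15 had 10.3 units on the control array and 300 on the KPC-exo array, a bound of at least 5.72-fold higher, at 1 of its 2 probes and with the local background flagged on both arrays. Slc6a15, a carrier of branched-chain amino acids and proline known from brain, went the other way at its only probe, with 156 units on the control array and a surrogate of 9.44 on the KPC-exo array, at least 5.54-fold lower. Slc7a13, known from kidney, had 58.5 and 9.47 units and was at least 2.08-fold lower, at 1 of 2 probes. Slc7a11, the cystine and glutamate exchanger that feeds glutathione synthesis, had a surrogate of 6.40 units and 74.4 units, at least 1.42-fold higher, at 1 of its 4 probes.

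Among the remaining genes detected with KPC-exo only, the bound was at least 1.30-fold for Slc6a7, a brain proline carrier, and at least 1.05-fold for Slc38a11. The Slc6a7 spot had its local background flagged on the KPC-exo array. The scanner error of its log2 difference was 0.46, beside a bound of 0.38 in log2. The error was also larger than the bound for Slc7a11 (1.47 beside 0.51), Slc7a13 (1.46 beside 1.06) and Slc38a11 (1.49 beside 0.07). It was smaller than the bound for Slc7a15 (0.95 beside 2.52) and Slc6a15 (1.46 beside 2.47). For Slc6a19, the neutral amino acid carrier of gut and kidney, with 17.8 and 49.2 units, no bound above 1 could be given. Over the whole array, a bound of at least 2-fold was reached by 157 of 1277 genes detected with KPC-exo only (12.3%) and by 177 of 616 detected with MPDC-exo only (28.7%). At least 5-fold was reached by 30 (2.3%) and 36 (5.8%) of them. Each of the transporter bounds rests on 1 probe.

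The Slc6a carriers that muscle is known to use were the brightest of their family and differed little. The creatine carrier Slc6a8 had 14896 units on the control array and 25679 on the KPC-exo array, and its 2 measured probes gave log2 differences of 0.04 and -0.25. The taurine carrier Slc6a6 had 12827 and 24053 units, with differences of 0.16 and -0.27 at its 2 measured probes. In neither gene did the probes share a sign. The glycine carrier Slc6a9 had 3723 and 7715 units, a difference of 0.30 at 1 probe and the highest of the family. This probe holds a run of 20 bases that occurs in a probe of 1 other gene name, whose difference was 0.25. How far that run sets the Slc6a9 value was not tested. Slc6a2, the noradrenaline carrier, had 1575 and 3020 units and a difference of 0.19. Its other probe held the surrogate on both arrays, with 6.44 and 9.47 units.

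Slc6a16 and Slc6a17, the latter known from brain, had log2 differences of -0.34 and -0.22, the former with 42.0 and 55.9 units, near the limit of detection. The 2 probes of Slc6a17 both gave -0.22. The 7 Slc6a differences had a median of 0.04.

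The Slc38a family contributes the glutamine carriers of the plasma membrane and the lysosome. Slc38a2, which amino acid shortage is known to induce, had the brightest transporter probe. It gave 16831 units on the control array and 37419 on the KPC-exo array, a log2 difference of 0.41 or 1.32-fold higher. Its local background was flagged on both arrays, and its other measured probe, with 103 and 181 units, had 0.07. Slc38a1, a close relative, had 5308 and 7723 units and a difference of -0.21 at its brightest probe, with 0.19 and -0.05 at the others. In Slc38a1 the probes lay on both sides of 0, and in Slc38a2 both lay above it but far apart.

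Slc38a9, a lysosomal protein that passes arginine and signals its presence to mTORC1, had the second highest difference, 0.46, with 2824 and 6505 units. That value came from a probe assigned through a clone, at chr13:113495110-113495169 on the + strand (mm9). The probe assigned through its RefSeq transcript, at chr13:113521855-113521914, had 498 and 878 units and a difference of 0.07. The clone probe holds a run of 20 bases, in capitals, that occurs in a probe of 1 other gene name, whose difference was 0.12. The search counted exact runs only and not looser matches, so how specific the clone probe is was not tested. The pair is shown because the size of the difference depends on which probe is read, while both lay above 0 and within 1.5-fold.
Slc38a9, clone probe: tctctGTGAGTTCCAGGACAGCCAAagcta
Slc38a9, RefSeq probe: gctcagtttttcatgtgaaaactctcttct

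Slc38a7, which exports glutamine from lysosomes, had 2884 and 4817 units and a log2 difference of -0.01. The brightest probe of Slc38a10 gave 0.06 and another -0.44, and the 3 probes of Slc38a6 ran from -0.25 to 0.03. Slc38a8 had 0.14 at a dim probe, and its other probe held the surrogate on both arrays. The median of the 7 Slc38a differences was 0.06, equal to that of all measured genes.

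The Slc43a genes were all measured and all slightly higher at their brightest probes. Slc43a1, a leucine carrier, had 801 and 1696 units and a log2 difference of 0.33, but -0.29 at its second, dim probe, and the local background of the brighter probe was flagged on both arrays. Slc43a2, a second carrier of large neutral amino acids, had 1329 and 2323 units and differences of 0.06 and 0.23. The first of these came from its brightest probe, whose local background was flagged on the KPC-exo array. Slc43a3, which carries purine nucleobases and not amino acids, had 560 and 1146 units and a difference of 0.29 at 1 of its 2 probes. The median of the 3 Slc43a differences was 0.29. Of the Slc36a carriers, Slc36a1, found on lysosomes, had 440 and 904 units and a difference of 0.29 at 1 of its 2 probes. Slc36a4 had 107 and 148 units and -0.28, so the 2 measured genes of this family lay on opposite sides of 0.

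Transporter genes are among the targets of the amino acid response, in which uncharged tRNA leads to translation of Atf4. An Atf4 and C/EBP composite motif, TGATGNAA, was searched on both strands of the RefSeq promoter windows (250 bases before to 50 after the start site, GRCm38.p6). It occurred in 3 of 42 transporter genes with a window (7.14%), beside 1219 of 27025 genes (4.51%). The genes were Slc7a11, Slc7a7 and Slc1a4. Slc7a11 held 2 matches on opposite strands, and its stretch at chr3:50443633-50443699 on the - strand is shown with both in capitals. Slc7a7 is shown at chr14:54418058-54418105 on the - strand, with 1 of its matches. Another match in the same window, from base -1 to base 6, is not shown. A match in a second Slc7a7 window, from base -243 to base -236, is not shown either. The Slc1a4 match, from base -4 to base 3, lies across the start site.
Slc7a11, bases -86 to -20: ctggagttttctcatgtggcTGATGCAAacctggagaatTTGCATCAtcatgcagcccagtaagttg
Slc7a7, bases -161 to -114: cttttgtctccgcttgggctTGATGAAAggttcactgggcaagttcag
In these arrays the 3 genes did not lie on 1 side: Slc7a11 had a bound of 1.42-fold higher with KPC-exo, Slc7a7 had a log2 difference of 0.24 and Slc1a4 of -0.31. The Slc7a11 bound rests on 1 of its 4 probes and is smaller than its scanner error. A match is a description of the letters and not of a bound site.

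Genes around the transporters differed little as well. All 25 listed genes of the amino acid response were measured, with 0 of them 1.5-fold apart and a median log2 difference of -0.03. The kinase regulator Trib3 had -0.38, the secreted glycoprotein gene Stc2 0.35, the transcription factor Cebpb -0.23 and the serine synthesis enzyme Phgdh 0.22. Atf4 itself gave -0.21 and, at its dimmer probe, 0.03, and the asparagine synthetase gene Asns -0.14 and 0.47.

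Of 29 genes of lysosomal amino acid sensing 28 were measured, with a median of 0.12. At their brightest probes 0 were at least 1.5-fold higher and 1 lower. The lower one was Rraga, a Rag GTPase that recruits mTORC1 to lysosomes, whose log2 level went from 3.80 to 2.77, 2.04-fold lower at 1 probe. Nprl2, an inhibitor of that pathway, had -0.42, Castor2, an arginine sensor relative, 0.29, and Seh1l 0.42 and -0.13 at its 2 probes.

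The 17 genes of branched-chain amino acid breakdown were all measured, with a median of 0.10. Dbt, a subunit of the ketoacid dehydrogenase, was 1.78-fold higher at a dim probe, in the quartile where 9.89% of genes were at least 1.5-fold higher. The transaminase Bcat2 had 0.48 and the dehydrogenase subunit Bckdha 0.35, while the phosphatase Ppm1k had -0.28 and 0.38 at its 2 probes. All 12 enzymes of glutamine, glutamate and aspartate lay within 1.5-fold, with a median of 0.07. Their widest differences were 0.56 for the alanine transaminase Gpt, with 0.04 at its other probe, 0.33 for Gclm, -0.30 for Oat and 0.21 for the glutaminase Gls2.

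Creatine and taurine synthesis, which stands beside uptake by Slc6a8 and Slc6a6, had the highest median of the lists, 0.39 over 5 of 6 genes measured, all of them above 0 and within 1.5-fold. The methyltransferase Gamt, which completes creatine, had 0.49, the first creatine enzyme Gatm 0.15, the thiol dioxygenase Ado 0.42, and Fmo1 0.39 with -0.21 at another probe. Cdo1 was not measured. Of 21 other amino acid or peptide carriers on the array 10 were measured, with a median of 0.18 and 0 past 1.5-fold at their brightest probes. Slc17a8 was detected with KPC-exo only, and 10 were well above background on neither array. Among those measured, the lysosomal carrier Slc66a1 had 0.48, the lysosomal cystine carrier Ctns -0.25 and Slc16a10 0.25. The mitochondrial aspartate and glutamate carrier Slc25a12 had 0.33, with probes from -0.46 to 0.93. The 7 genes of transporter trafficking had a median of -0.05 and 0 past 1.5-fold at their brightest probes. The ubiquitin ligase Nedd4 had -0.54 and -0.07 at its 2 probes, and the chaperone Bsg -0.10. Txnip had 0.26 and, at its dimmer probe, -0.15. Slc9a3r1 had -0.15 and, at its dimmer probe, -0.70, which is past 1.5-fold.

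The differences were recomputed under 11 other processing choices, apart from centring on spike-in probes, which moved all genes up together and is described with the processing effects. The sign stayed the same under each of these in 20 of 29 genes and changed under at least 1 in the other 9: Slc3a2, Slc6a6, Slc6a8, Slc38a6, Slc38a7, Slc38a8, Slc38a10, Slc43a1 and Slc43a2. Slc1a5 was past 1.5-fold in all 11 of them, with log2 differences from 0.69 to 0.79. It has 1 probe, with no flag, so several of these choices could not move it. Its value stayed at 0.77 with no filter on dim probes, with the stricter filter and with the mean over probes. Of the 9 genes that changed sign, only Slc38a7 and Slc38a8 had 1 measured probe. In genes with 1 measured probe the mean over probes cannot change the sign, so the count of 20 depends partly on probe number.

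**Figure D5:**
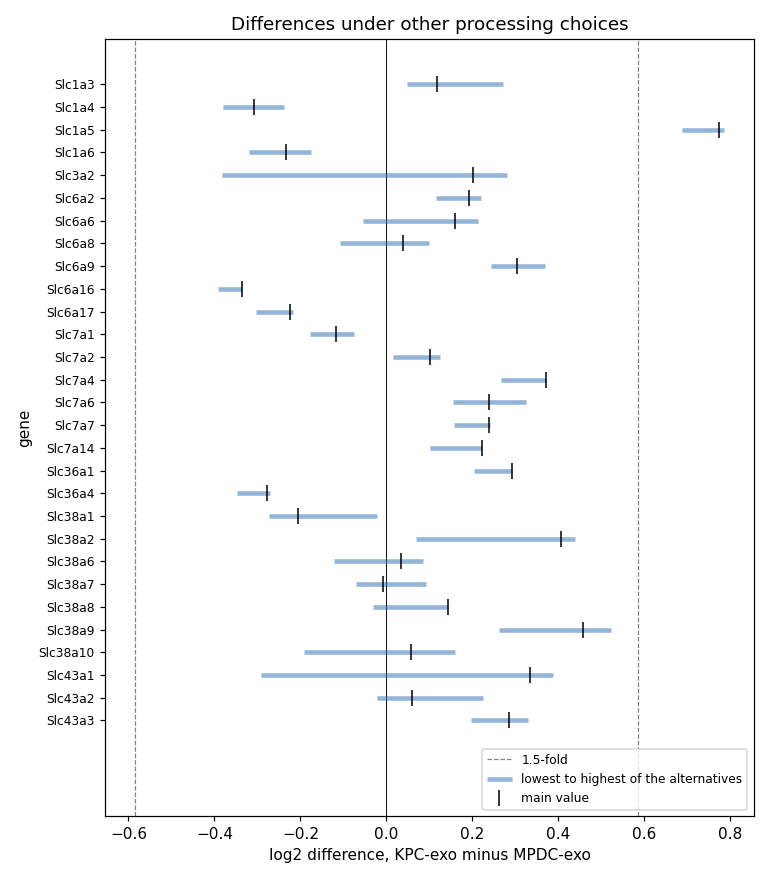
Lowest to highest log2 difference (KPC-exo minus MPDC-exo) of each measured transporter over 11 processing alternatives without spike-in centring (bars) and its main value (ticks), with the 1.5-fold lines dashed. The bar of Slc1a5 stays above the upper line, though several choices could not move its only probe. The bars of Slc3a2 and Slc43a1 reach across 0.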

How the data were processed

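Per the labels, RNA was amplified to Cy3-labelled cRNA for 1-colour Agilent arrays of 60-base probes. Agilent Feature Extraction 10.7.1.1 read the spots, per the submitters' processing notes. The authors deposited linear spot intensity, background-subtracted and not normalized between arrays, and a series table of log2 values whose making is not stated in the labels. Precision is limited by the 2 arrays, 1 per group.

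From the intensity, log2 of the processed signal was taken, flagged spots (102 and 166) were left out, spots were averaged per probe and the array's 75th percentile was subtracted. No transporter spot was flagged or saturated. A gene stands by its brightest probe. All 60 symbols were found in RefSeq (GRCm38.p6, names only), and probe positions are mm9 per the file headers. Exon or UTR placement was not analysed here.

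The alternatives were normexp (offset 50), median or detected-probe centring, quantile and cyclic loess normalization, other filters on dim probes, the mean over probes, flagged spots kept, spots with flagged background left out, the series table and a 2-fold threshold. Spike-in centring was added after seeing the data. Named in full are members at least 1.5-fold apart, the 5 highest and 5 lowest, those with discordant probes, those with bounds and a fixed set, and of each other list up to 4 genes with the largest difference; Asns and, for the probes, Atf4 were added after their values were seen. A gene that the rule selects and an allele are not reported here. Members and lists were chosen with earlier results of these data known. Printed probes are 30 of their 60 bases. Scripts were tested on simulated data. Python 3.11.15 (numpy 2.4.6, pandas 2.3.3, matplotlib 3.10.9) and R 4.3.3 (limma 3.58.1) were used.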

Additional observations from a re-analysis of the deposited data

How the results depend on the processing

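No paired analysis was possible because each group has 1 array. Over all alternatives but spike-in centring, the median log2 difference of the measured transporters ran from 0.06 to 0.16. The family medians of Slc7a (0.15 to 0.24) and Slc43a (0.14 to 0.33) stayed above 0, while those of Slc1a (-0.15 to 0.02), Slc6a (-0.15 to 0.16) and Slc38a (-0.01 to 0.09) crossed it. With no filter on dim probes all 60 genes counted as measured, with 9 at least 1.5-fold higher and 4 lower. Apart from Slc1a5 and the 1 lower gene of the main setting, none of these was well above background on both arrays. No share over all 37305 genes is given at this setting, so these counts say nothing particular about transporters. At a 2-fold threshold the counts were 0 and 0. The count of 1 lower gene was 0 with normexp background correction and 0 with the stricter filter on dim probes. Centring on 7 spike-in probes, chosen after seeing the data, moved the median of all measured genes to 1.08. It gave 29 higher and 0 lower genes, a median of 1.15 for the transporters, and family medians of 0.96 (Slc1a), 1.06 (Slc6a), 1.25 (Slc7a), 1.08 (Slc38a) and 1.30 (Slc43a). Every difference here is therefore relative to the bulk of genes. Of 315 single-gene values, 4 moved by more than the 0.29 between probes. Slc3a2 was at -0.38 and Slc43a1 at 0.02 with the mean over probes, and Slc38a2 at 0.07 and Slc43a1 at -0.29 without spots of flagged background. Dim signal limits the Slc6a16 value and all bounds.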
